A study of Mus musculus with 12 samples.

Results

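Gene deserts, here the DNA more than 50 kb from any protein-coding gene, were followed through reduced representation bisulfite sequencing (RRBS) of mouse leukaemia cells. Non-overlapping tiles of 1000 bp were kept on the autosomes where at least 3 CpGs had 10 or more methylation calls in each of the 12 libraries. Of the 84475 such tiles, 12225 lay in deserts and met 2 further conditions: fewer than 25 measured CpGs, and, for tiles with 3 to 9 CpGs, a mean of at least 20% in the PBS libraries. These 12225 desert tiles hold 72464 measured CpGs (median 5 per tile) and are spread over 1826 gaps between neighbouring coding genes. The PBS level therefore chose the 10608 tiles with 3 to 9 CpGs and left 433 others out, and no methylation value chose the 1617 tiles with 10 to 24 CpGs. For this reason differences from PBS among all desert tiles are given as a description, and tests against PBS were run on the tiles with 10 to 24 CpGs and on the 12658 desert tiles taken before the PBS condition.

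Gene deserts hold few coding genes but many long non-coding RNA genes, pseudogenes, repeats and enhancers that act on distant genes. DNA methylation in mammals sits mainly on CpGs, is high over most of the genome and is low at CpG-rich starts of genes. In dividing cells and many cancers, gene-poor DNA loses part of its methylation, above all at CpGs that stand alone between A or T bases, while CpG-rich elements inside the same stretch can keep levels of their own.

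The cells were CMM cells, GFP-positive mouse leukaemia cells labelled AML (acute myeloid leukaemia), given intravenously to C57BL/6 mice. Mice were treated once GFP-positive cells reached about 1% in blood, with 3 intravenous doses, one every other day, of PBS or of CpG-STAT3dODN, an oligonucleotide that pairs a TLR9-activating CpG stretch with a decoy site for the transcription factor STAT3. Spleens were harvested 1 day later, and 3 groups of 4 libraries were made: all GFP-positive cells of PBS mice (PBS), and the GFP-positive cells of treated mice without (CD11b-negative) and with (CD11b-positive) the myeloid surface protein CD11b. The study asked about DNA methyltransferases in the CD11b-positive subset against the CD11b-negative bulk and against untreated cells. PBS cells were not divided by CD11b, so treatment and the gate cannot be told apart in comparisons with PBS. The sources used here give neither sex nor age of the mice. Nor do they state whether each library stands for its own mouse, and p-values therefore measure the spread between libraries, which may be technical.

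The libraries held 112671408 to 157223205 methylation calls, and the median desert tile had 440 to 594 calls per library. CD11b-negative replicate 2 stood apart from the other CD11b-negative libraries and beside CD11b-positive replicate 2: these 2 libraries listed 6514505 and 6839563 CpGs, against 2831927 to 5722886 in the others. The number of listed CpGs moved with the groups as well. It was 2831927 to 3378484 in PBS and 3713833 to 6839563 in CD11b-positive libraries, without overlap. Its part in the differences from PBS was not tested. The share of calls on 8 single-copy Y genes also moved with the groups. It was 5.33 to 18.1 calls per 1000000 autosomal calls in PBS, 8.28 to 12.2 in CD11b-negative replicates 1, 3 and 4, 39.2 in CD11b-negative replicate 2, 23.2 to 24.2 in CD11b-positive replicates 1, 3 and 4 and 40.04 in CD11b-positive replicate 2. Cell type was checked by methylation within 1000 bp of the gene end (start or finish, whichever held more measured CpGs) of marker genes, since expression was not measured, and 15 of 24 listed markers had at least 3 measured CpGs. The ends of the progenitor genes Kit, Cd34 and Cebpa had at most 2.76% in any library, but those of the T cell genes Cd3d and Cd4 and the B cell gene Ebf1 were as low (at most 2.12%). The other T cell genes did not move together: Bcl11b had 62.2% in PBS and 29.7% in CD11b-positive cells, and Zap70 45.8% and 73.5%. The B cell gene Blk had 30.9% and 52.8%. The myeloid genes Spi1 and Elane had 78.6% and 48.2% in PBS and 89.5% and 71.2% in CD11b-positive cells, and the erythroid genes Rhd, Ermap and Epor 9.60%, 8.06% and 2.92% against 59.9%, 56.1% and 30.9%, while the erythroid gene Klf1 was at most 3.11% in any library. The marker values moved with the groups, and their part in the results was not tested.

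RefSeq promoter sequences (GRCm38.p6, 250 bases before to 50 after a start) show what desert CpGs look like. Of the non-coding genes in desert tiles, 107 had a window with a measured CpG, and 82 windows held at least 3. The windows below were picked after their values were seen. They are the window with most measured CpGs under 20% and the one with most at 80% or more in PBS, then, where CD11b-positive and PBS libraries did not overlap, the 2 largest differences upward and the 2 largest downward. All are starts of long non-coding RNAs, printed 5′ to 3′, with the measured CpGs in capitals.
Gm32351 (chr13:94702839-94703138, minus strand): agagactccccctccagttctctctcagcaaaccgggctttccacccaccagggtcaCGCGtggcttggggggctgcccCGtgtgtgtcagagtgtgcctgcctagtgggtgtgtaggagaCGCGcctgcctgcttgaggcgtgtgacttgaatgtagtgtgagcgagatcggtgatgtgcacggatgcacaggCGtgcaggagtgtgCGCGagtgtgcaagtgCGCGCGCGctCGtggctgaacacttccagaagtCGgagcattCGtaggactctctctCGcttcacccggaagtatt
Gm42298 (chr4:71381778-71382077, plus strand): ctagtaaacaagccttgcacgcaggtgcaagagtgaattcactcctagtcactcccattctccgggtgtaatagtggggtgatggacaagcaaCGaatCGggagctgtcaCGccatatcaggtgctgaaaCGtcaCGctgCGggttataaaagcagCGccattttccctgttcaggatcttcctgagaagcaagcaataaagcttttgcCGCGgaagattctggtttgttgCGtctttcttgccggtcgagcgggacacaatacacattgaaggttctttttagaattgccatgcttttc
Gm34637 (chr12:12669868-12670167, minus strand): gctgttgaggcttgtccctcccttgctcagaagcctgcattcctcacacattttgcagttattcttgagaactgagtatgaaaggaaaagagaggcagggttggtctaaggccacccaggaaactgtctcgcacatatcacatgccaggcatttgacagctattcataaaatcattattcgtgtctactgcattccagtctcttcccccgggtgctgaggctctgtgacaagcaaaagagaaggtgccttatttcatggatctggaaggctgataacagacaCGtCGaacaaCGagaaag
G730013B05Rik (chr16:50525995-50526294, plus strand): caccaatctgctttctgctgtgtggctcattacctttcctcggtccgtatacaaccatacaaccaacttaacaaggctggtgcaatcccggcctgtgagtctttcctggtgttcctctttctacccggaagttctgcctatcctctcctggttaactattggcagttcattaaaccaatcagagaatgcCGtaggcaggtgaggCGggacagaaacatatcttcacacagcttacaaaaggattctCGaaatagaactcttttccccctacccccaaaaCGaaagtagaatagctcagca
Gm39027 (chr7:67849406-67849705, minus strand): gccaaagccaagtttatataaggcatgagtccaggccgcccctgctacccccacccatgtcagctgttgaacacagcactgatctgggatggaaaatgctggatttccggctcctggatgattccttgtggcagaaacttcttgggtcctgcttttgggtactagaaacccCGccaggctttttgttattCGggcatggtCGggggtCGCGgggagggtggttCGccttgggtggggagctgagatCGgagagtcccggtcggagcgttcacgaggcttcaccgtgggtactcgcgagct
1700030C10Rik (chr12:20815730-20816029, minus strand): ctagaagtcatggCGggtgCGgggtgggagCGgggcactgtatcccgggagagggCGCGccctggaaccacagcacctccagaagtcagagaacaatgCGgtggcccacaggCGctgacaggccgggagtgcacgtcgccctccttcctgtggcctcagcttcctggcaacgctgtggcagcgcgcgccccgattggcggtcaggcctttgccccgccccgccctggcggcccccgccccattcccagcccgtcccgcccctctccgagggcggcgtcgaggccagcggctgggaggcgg

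Gm32351, 84.9 kb from the tubulin cofactor gene Tbca, was unmethylated in all groups: its 16 measured CpGs had 1.90% ± 0.516 in PBS, 2.02% ± 0.699 in CD11b-negative and 1.61% ± 0.792 in CD11b-positive libraries (SD, n = 4 each, as for every ± below). Gm42298 was methylated in all groups, with 87.3% ± 0.795, 91.5% ± 2.37 and 93.3% ± 1.62 over 10 CpGs. At Gm34637, 266.1 kb from the Myc family gene Mycn, the PBS libraries had 23.6%, 43.2%, 30.6% and 35.6% and the CD11b-positive libraries 67.3%, 87.5%, 62.4% and 58.3% (replicates 1 to 4). All 3 measured CpGs of that window have A or T on both sides. At G730013B05Rik, 62.9 kb from Ccdc54, PBS had 26.1% ± 6.79 and CD11b-positive 59.1% ± 19.2, and 2 of the 4 measured CpGs have A or T on both sides. The opposite direction was seen at Gm39027, 89.3 kb from the intermediate filament gene Synm, where PBS libraries had 67.8%, 48.6%, 63.7% and 57.0% and CD11b-positive libraries 34.0%, 17.2%, 40.1% and 42.9%. None of its 7 measured CpGs has A or T on both sides. At 1700030C10Rik, whose window has 29 CpGs and 72.7% G or C, the level was 66.9% ± 9.67 in PBS and 42.2% ± 12.3 in CD11b-positive libraries, and all 7 measured CpGs have G or C on both sides. In the CD11b-negative group, replicate 2 had 17.6% at Gm39027 and 86.0% at G730013B05Rik, close to CD11b-positive replicate 2 (17.2% and 86.1%). Counting 1 window per gene, CD11b-positive libraries lay above all PBS libraries in 33 of 77 windows (42.9%) and below in 9 (11.7%), a description, beside 50.3% and 5.88% of all tiles. The median window had 4 measured CpGs and 51.7% G or C in the first set and 11 and 60.3% in the second.

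An unmethylated desert tile in the gap between Mef2c and Tmem161b holds the microRNA gene Mir9-2 and, on the other strand, Gm51268, the gene of miR-9b-3p. The Mir9-2 precursor gives miR-9, a microRNA best known from the nervous system. Its mature sequences are printed with the seed (bases 2 to 8) in capitals.
miR-9-5p (chr13:83738821-83738843, plus strand): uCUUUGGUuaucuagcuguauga
miR-9-3p (chr13:83738858-83738879, plus strand): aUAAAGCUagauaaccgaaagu

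The Mir9-2 tile (chr13:83738001-83739000, 10 CpGs) had 1.21% ± 0.244 in PBS and 2.10% ± 0.480 in CD11b-positive libraries. The 4 other tiles with an annotated microRNA were methylated: Mir5099 had 91.1% in PBS and 94.6% in CD11b-positive libraries, Mir8117 82.4% and 88.9%, Mir539 79.3% and 87.4%, and Mir1a-1, whose microRNA acts in muscle, 54.0% and 57.2%.

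Desert tiles were more methylated in the treated cells than in PBS, and the difference was larger in the CD11b-positive than in the CD11b-negative libraries other than replicate 2. The mean over all desert tiles was 70.5%, 72.5%, 71.6% and 71.4% in PBS replicates 1 to 4. In CD11b-negative libraries it was 75.5%, 84.2%, 73.9% and 73.4%. In CD11b-positive libraries it was 80.5%, 85.3%, 79.6% and 79.6%. Every treated library lay above every PBS library, and CD11b-negative replicate 2 lay among the CD11b-positive libraries. The share of tiles at 80% or more was 40.6% to 42.4% in PBS, 46.4% to 52.0% in CD11b-negative replicates 1, 3 and 4, 81.3% in CD11b-negative replicate 2, 62.2% to 65.1% in CD11b-positive replicates 1, 3 and 4 and 84.0% in CD11b-positive replicate 2. Tiles under 20% made up 1.03% to 2.27% of desert tiles in the 12 libraries.

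**Figure D1:**
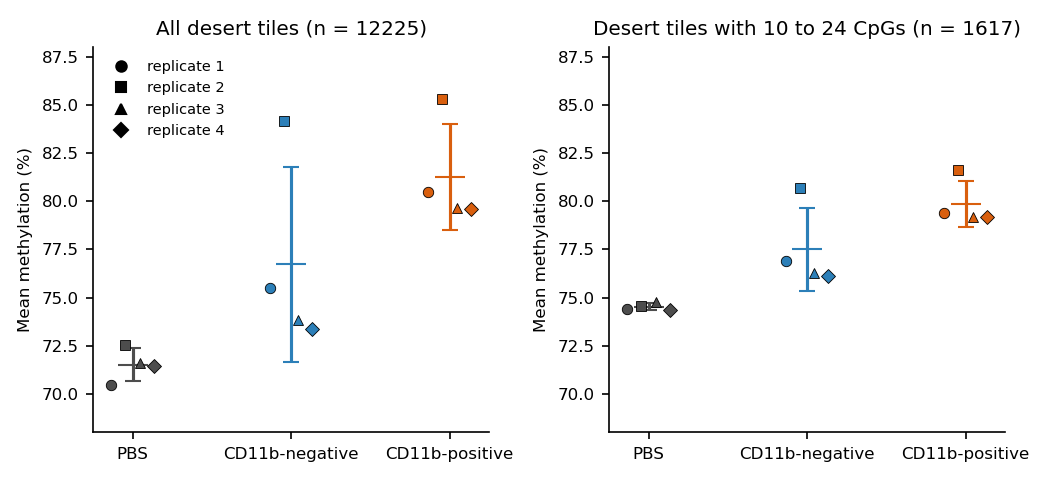
Mean methylation (%, y axis from 68) of all 12225 desert tiles (left) and of the 1617 with 10 to 24 CpGs (right) in each library. Symbols are libraries by replicate number, and the line and bars are the group mean and SD. Replicate 2 is the highest library of both treated groups, at 84.2% and 85.3% in the left panel.

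The comparison of CD11b-positive with CD11b-negative cells, both from treated mice, is independent of how the tiles were chosen. The group means were 81.3% ± 2.73 and 76.7% ± 5.05, a difference of 4.53 points with overlapping libraries. The two-sided exact permutation test over the 70 assignments gave p = 0.143, adjusted p = 0.184 over the 9 tests between library means. Without CD11b-negative replicate 2 the difference was 7.02 points and the libraries did not overlap (73.4% to 75.5% against 79.6% to 85.3%). The desert tiles taken before the PBS condition allow comparison with PBS. Their mean was 69.4% ± 0.861 in PBS, 74.6% ± 5.09 in CD11b-negative and 79.1% ± 2.75 in CD11b-positive libraries. The differences from PBS were 5.20 and 9.73 points, without overlap in either case (exact permutation p = 0.0286 each, the smallest that the 70 assignments allow, adjusted p = 0.0643). Without CD11b-negative replicate 2 the first of these was 2.699 points. In desert tiles with 10 to 24 CpGs the means were 74.5% ± 0.199, 77.5% ± 2.15 and 79.9% ± 1.198. They differed from PBS by 2.97 points in CD11b-negative libraries and 5.32 points in CD11b-positive libraries, again without overlap and with the same p and adjusted p from the exact permutation test. Without CD11b-negative replicate 2 the former was 1.91 points. The 2 treated groups differed by 2.35 points there (exact permutation p = 0.114, adjusted p = 0.184). No difference between library means passed 0.05 after adjustment.

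Deserts were compared with the tiles closer to genes that met the same conditions on CpGs and PBS level. PBS means were 71.5% ± 0.849 in deserts, 59.5% ± 1.49 in the 15191 tiles outside genes within 50 kb of one and 56.6% ± 1.15 in the 38180 tiles that overlap a coding gene. Desert tiles exceeded the near tiles by 11.7 points ± 1.70 in CD11b-negative and 10.7 ± 0.934 in CD11b-positive libraries, a change of -1.01 points that was within the spread (exact permutation p = 0.4, adjusted p = 0.4). The excess over in-gene tiles was 16.1 points ± 0.271 and 16.3 ± 0.0601, a change of 0.232 points (exact permutation p = 0.2, adjusted p = 0.225). The difference between the treated groups was thus not shown to differ between deserts and the DNA nearer to genes.

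Tile by tile, the CD11b-positive libraries were above PBS over a large part of the desert. A quasi-binomial logistic model called a tile at an adjusted p under 0.05 over all 87020 tiles and a difference of at least 10 points. Of the 12225 desert tiles 4962 (40.6%) were called higher and 214 (1.75%) lower, beside 32.5% and 3.76% of all tiles tested. Tiles that met the same conditions on CpGs and PBS level had 47.4% called higher and 2.89% lower outside genes within 50 kb, and 35.5% and 3.67% inside coding genes, so the desert share called higher lay between theirs and the share called lower was below both. These counts include tiles that the PBS level helped to choose. The median difference was 8.33 points in deserts, 9.90 in the near tiles, 6.13 in the in-gene tiles and 5.0003 over all tiles. CD11b-positive libraries lay above all PBS libraries in 8266 desert tiles (67.6%) and below in 227 (1.86%), against 50.3% and 5.88% of all tiles. All tiles are not matched in level, since 25775 of the 87020 had under 20% in PBS. The near tiles had 65.5% above and 3.94% below, close to the desert share above, and the in-gene tiles 54.6% and 5.10%. Among the 1617 desert tiles with 10 to 24 CpGs, 285 rose (17.6%) and 51 fell (3.15%), beside 14.1% and 5.39% of the 14907 autosomal tiles with as many CpGs. Leaving out CD11b-positive replicate 2 gave 209 and 42. The libraries of these desert tiles did not overlap in 1076 tiles upward (66.5%, against 35.3%) and 66 downward (4.08%, against 9.26%). The 2 sets differ in level, since 7984 of the 14907 and 116 of the 1617 had under 20% in PBS. The shares by PBS class are a description, since the calls use the PBS values that define the class. By PBS class from 20% upward, 23.5%, 50%, 56.4% and 0.307% of these desert tiles were called higher. The autosomal tiles had 29.1%, 53.9%, 58.0% and 1.14%. Under 20% the shares were 6.03% in deserts and 2.54%. When the model also held the Y share, 3 desert tiles were called higher, 2 of them with 10 to 24 CpGs, and none lower, so the calls against PBS and the Y share of the libraries cannot be told apart.

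CD11b-negative against PBS, and CD11b-positive against CD11b-negative, gave no called desert tile, beside 0.0% of all tiles in each direction. At an unadjusted p under 0.05 the quasi-binomial test had 2162 and 1624 of the 12225 desert tiles. It had 1613 and 1792 of the 15191 near tiles and 3277 and 4533 of the 38180 in-gene tiles. With edgeR's quasi-likelihood test it was 1190 and 397 desert tiles, and 0 were called by edgeR in either comparison. The tests thus differed widely. Shares of all tiles are not given for these counts, which are no result about deserts. CD11b-negative libraries lay above all PBS libraries in 2357 desert tiles (19.3%, against 10.2% of all tiles) and below in 15 (0.123%, against 0.393%). Among those with 10 to 24 CpGs they did so in 399 (24.7%, against 8.83%) and 3 (0.186%, against 0.617%). CD11b-positive libraries lay above all CD11b-negative libraries in 328 (2.68%, against 1.99%) and below in 25 (0.204%, against 0.583%), and with 10 to 24 CpGs in 56 (3.46%, against 2.02%) and 2 (0.124%, against 0.698%). Without CD11b-negative replicate 2, the last comparison called 2193 desert tiles higher (17.9%) and 140 lower (1.15%), beside 17.7% and 2.72% of all tiles. Of these, 147 and 42 had 10 to 24 CpGs (9.09% and 2.60%, beside 9.52% and 4.39% of autosomal tiles with as many CpGs). The reference shares in this paragraph are not matched in level, since tiles under 20% in PBS were commoner there than among desert tiles.

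The difference from PBS depended on the level in PBS and was widest in tiles of low to intermediate level. Within a class of PBS level it has no test, since the same PBS values define the class. Counts of tiles called against PBS within such classes use those values too and are a description throughout. In the 867 desert tiles with 20% to 40% in PBS the mean was 31.4% ± 3.05 in PBS, 41.9% ± 12.9 in CD11b-negative and 52.1% ± 7.08 in CD11b-positive libraries. The 1864 tiles with 40% to 60% had 51.7% ± 2.22, 60.5% ± 10.1 and 68.9% ± 5.42. The 4334 tiles with 60% to 80% had 71.2% ± 1.06, 77.1% ± 5.75 and 82.3% ± 3.07. In the 5044 tiles at 80% or more the 3 means were 87.5% ± 0.275, 89.95% ± 1.33 and 91.7% ± 0.773, and 81 tiles of this class were called higher and 14 lower (1.61% and 0.278%, beside 1.80% and 0.861% of all tiles of the class). At 20% to 40%, 638 were called higher and 60 lower (73.6% and 6.92%, beside 60.95% and 14.6% of all tiles of that level). At 40% to 60% it was 1511 and 76 (81.1% and 4.08%, beside 74.6% and 9.52%), and at 60% to 80% it was 2725 and 64 (62.9% and 1.48%, beside 60.8% and 3.44%).

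The classes of PBS level show where the 2 treated groups part. CD11b-positive minus CD11b-negative was 10.2 points at 20% to 40%, 8.39 at 40% to 60%, 5.15 at 60% to 80%, 1.70 at 80% or more and 0.290 under 20%. None passed the exact permutation test over libraries (adjusted p = 0.229 in each of the 5 classes). Without CD11b-negative replicate 2 the first 4 differences were 16.6, 13.4, 7.97 and 2.36 points. In the desert tiles with 10 to 24 CpGs the class of 20% to 40% showed no such spread: the 51 tiles had 29.0% ± 0.928 in PBS and 29.6% ± 0.456 in CD11b-positive libraries, and 12 were called higher and 17 lower (23.5% and 33.3%, beside 29.1% and 33.4% of all autosomal tiles with as many CpGs and that level). In the 66 such tiles at 40% to 60% the means were 51.8% ± 0.581 and 56.9% ± 0.851. Of them 33 were called higher and 15 lower (50% and 22.7%, beside 53.9% and 28.2% of such autosomal tiles at that level). In the 408 at 60% to 80% the means were 73.3% ± 0.666 and 82.6% ± 2.43. There 230 were called higher and 18 lower (56.4% and 4.41%, beside 58.0% and 8.30%).

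**Figure D2:**
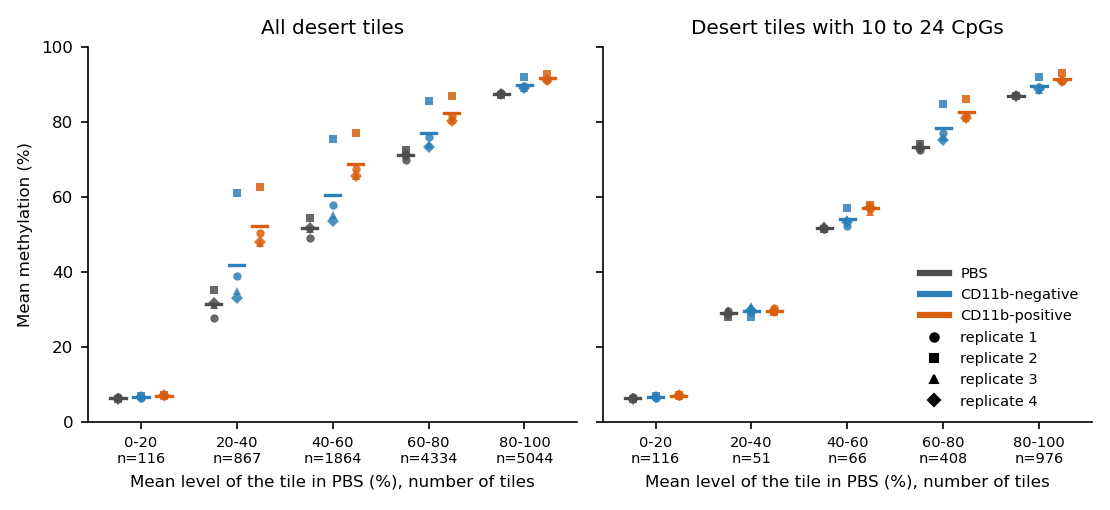
Mean methylation (%) in each library of desert tiles grouped by their mean level in PBS, for all desert tiles (left) and those with 10 to 24 CpGs (right). Short lines are group means and symbols are libraries by replicate number. The groups are farthest apart at 20% to 40% in the left panel (31.4%, 41.9% and 52.1%) and lie together in that class in the right panel (29.0%, 29.5% and 29.6%).

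All 19 autosomes showed the same order of groups. On each, every CD11b-positive library lay above every PBS library. The chromosome mean in PBS ran from 66.8% ± 1.51 on chromosome 11 (459 tiles) to 74.0% ± 0.674 on chromosome 1 (1021 tiles), and in CD11b-positive libraries from 78.3% ± 3.23 on chromosome 19 to 83.5% ± 2.67 on chromosome 3. The difference between CD11b-positive and PBS was largest on chromosome 11 (12.2 points), followed by chromosomes 9 (11.4) and 17 (11.2), and smallest on chromosomes 4 (8.25), 7 (8.29) and 12 (8.44). In tiles with 10 to 24 CpGs it ran from 2.42 points on chromosome 12 to 7.58 on chromosome 17. CD11b-positive exceeded CD11b-negative by 3.67 to 5.87 points, with overlapping libraries and an adjusted p of 0.2 on each chromosome in the exact permutation test. In this contrast no chromosome passed the test against the mean of the others (exact permutation test, lowest adjusted p = 0.588). A chromosome that alone stood apart could not have passed. The exact permutation test cannot go below p = 0.0286, and the adjustment covered 19 chromosomes. This test therefore cannot decide whether a single chromosome differed. Deserts made up different parts of the chromosomes' measured tiles, from 7.24% on chromosome 11 to 23.0% on chromosome 3.

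**Figure D3:**
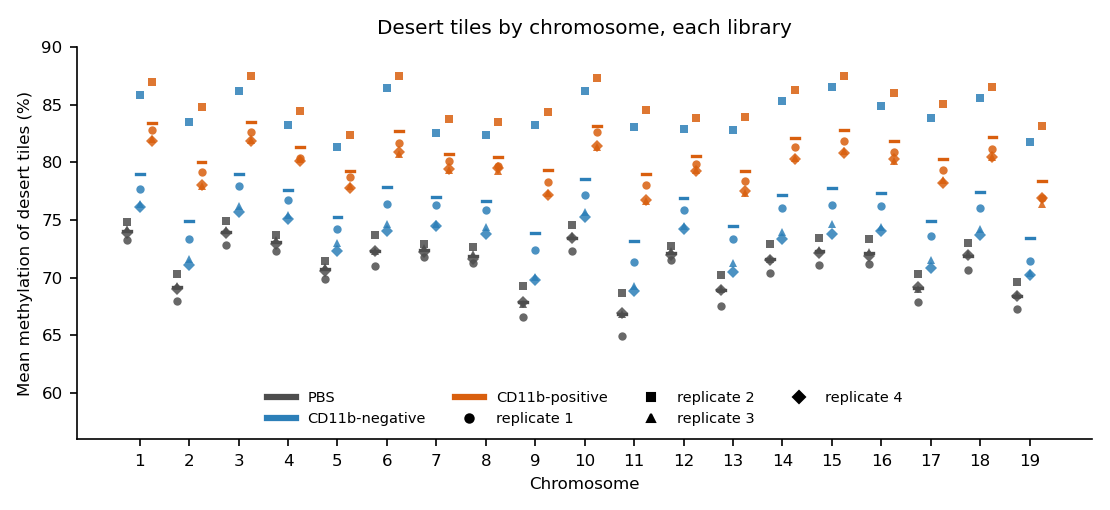
Mean methylation of desert tiles (%, y axis from 56) on each autosome in every library. Short lines are group means and symbols are libraries by replicate number. CD11b-positive libraries are above PBS on all 19 chromosomes, and the gap is widest on chromosome 11 (66.8% and 79.0%).

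Desert tiles farther from the nearest coding gene were more methylated. In PBS the mean was 66.8% ± 1.23 at 50 to 100 kb (3676 tiles), 70.9% ± 0.848 at 100 to 200 kb (3369), 74.1% ± 0.638 at 200 to 500 kb (3260) and 77.4% ± 0.494 beyond 500 kb (1920). The same classes had 77.7% ± 3.32, 80.5% ± 2.696, 83.2% ± 2.39 and 86.2% ± 2.25 in CD11b-positive libraries, so that the difference from PBS went from 10.9 to 8.84 points. The number of CpGs in a tile gave another gradient. With 3 CpGs the mean was 66.0% ± 1.35 in PBS and 78.6% ± 3.73 in CD11b-positive libraries, 12.7 points apart. With 6 to 9 CpGs it was 76.4% ± 0.595 and 84.4% ± 2.14, and with 15 to 24 CpGs 72.0% ± 0.307 and 75.7% ± 0.641, 3.73 points apart. These classes were not chosen alike. Tiles under 20% in PBS were left out where they had 3 to 9 CpGs (433) and kept where they had 10 to 24 (116). The part of this rule in the gradient by CpG number was not tested. The distance classes share their median of 5 CpGs per tile, but tiles with 10 to 24 CpGs made up 12.5%, 12.3%, 12.8% and 17.0% of them. The part of CpG number in the distance gradient was not tested.

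**Figure D4:**
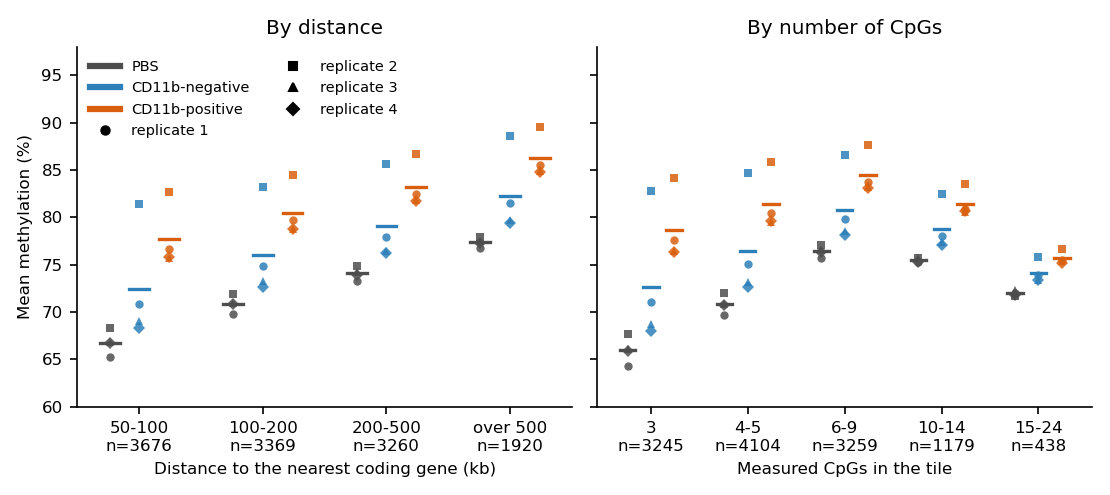
Mean methylation (%, y axis from 60) of desert tiles by distance to the nearest coding gene (left, kb) and by the number of measured CpGs in the tile (right), in every library. Short lines are group means and symbols are libraries by replicate number. The groups come closest at 15 to 24 CpGs (72.0%, 74.1% and 75.7%).

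Single CpGs differed by their surroundings. The CpGs of desert tiles whose 2 flanking bases could be read from the files (66909) were divided by those bases and by the number of other listed CpGs within 35 bp. This is a description over CpGs that share libraries and reads, and the classes were chosen after the data were seen. The 1808 CpGs with A or T on both sides and no other CpG within 35 bp had 42.4% ± 2.65 in PBS, 53.5% ± 12.03 in CD11b-negative and 63.1% ± 6.48 in CD11b-positive libraries. By library they were 39.3% to 45.7% in PBS and 59.1% or more in CD11b-positive cells. At the other end, the 12347 CpGs with G or C on both sides and 3 or more CpGs nearby had 83.3% ± 0.414, 84.7% ± 0.371 and 85.6% ± 0.255. Classes in between were graded in both features. With A or T on both sides and 3 or more CpGs nearby the means were 71.3% ± 0.826 in PBS and 80.2% ± 2.57 in CD11b-positive libraries. With G or C on both sides and none nearby they were 68.9% ± 0.835 and 79.3% ± 2.76. CD11b-positive libraries were above all PBS libraries in the 12 classes, by 2.28 to 20.7 points, and above all CD11b-negative libraries in 1, that of G or C on both sides with 3 or more CpGs nearby.

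Most gaps between genes were higher as a whole in CD11b-positive cells. Of the 843 gaps with 5 or more desert tiles, 805 (95.5%) had all CD11b-positive libraries above all PBS libraries and 1 had them below. This is a description because PBS helped to choose the tiles. Single tiles were above and below in 67.6% and 1.86% of cases in deserts and in 50.3% and 5.88% genome-wide. A gap's value averages 5 or more tiles, so shares of gaps and of single tiles are not alike. The median difference was 9.16 points. CD11b-positive was above CD11b-negative without overlap in 11 gaps, and its mean was the higher of the 2 in 822. Of single tiles, 2.68% in deserts and 1.99% of all were above without overlap. The gap with most desert tiles, 59 over 4542 kb between the protocadherin genes Pcdh20 and Pcdh9 on chromosome 14, had 80.7% ± 0.557 in PBS and 88.9% ± 1.62 in CD11b-positive libraries. There 17 tiles were called higher (28.8%) and none lower, beside 40.6% and 1.75% of desert tiles and 32.5% and 3.76% of all tiles. In the 10 gaps that were richest in tiles or longest the difference ran from 4.04 to 15.2 points. The least was in the 789 kb between Mn1, a gene of myeloid leukaemia fusions, and Cryba4 on chromosome 5 (52 tiles, 65.7% ± 0.665 and 69.8% ± 0.581). In that gap 15 of the 52 tiles were called higher (28.8%) and 7 lower. Calls lower were commoner there than the 1.75% of desert tiles and 3.76% of all tiles. Its CD11b-positive libraries also lay above all CD11b-negative libraries, by 2.16 points on average. The most was between Sdk2, an adhesion molecule gene, and the ribosomal protein gene Rpl38 on chromosome 11 (47 tiles, 56.1% ± 2.31 and 71.4% ± 5.43), with 30 higher (63.8%) and none lower.

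Others of these 10 lay between Dsel and Cntnap5a (6.20 points), Cntnap5b and Cdh20 (8.27), Sall3 and Galr1 (11.7), Snx16 and Ralyl (8.87), Olfm4 and Pcdh17 (7.22) and Celf4 and Pik3c3 (12.1). The 3 of these beside the neuronal adhesion genes Cntnap5a, Cdh20 and Pcdh17 had 79.7%, 79.4% and 78.4% in PBS. A pair of gaps was picked after the values were seen, for the lowest and the highest difference. Between Snx7 and Dpyd on chromosome 3 the 7 tiles had 57.3% ± 4.55 in PBS and 43.7% ± 6.02 in CD11b-positive libraries with 5 tiles called lower. Between Tgfbr2, a receptor gene of the growth factor TGF-beta, and Rbms3 on chromosome 9 the 5 tiles had 42.7% ± 4.31 and 72.0% ± 7.66 and all 5 were called higher.

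Gaps beside regulators of blood cells differed from PBS by 1.54 to 25.6 points. Of 42 gaps flanked by a gene of a list of 50 such regulators, 27 held 5 or more desert tiles (359 tiles). Of those tiles 186 were called higher (51.8%) and 13 lower (3.62%), beside 40.6% and 1.75% of desert tiles and 32.5% and 3.76% of all tiles. In 26 of the 27 gaps (96.3%) every CD11b-positive library lay above every PBS library, close to the 95.5% of all 843 gaps. Their median difference was 11.4 points. The largest lay beside Cebpb, a transcription factor of myeloid cells, where the 19 tiles of the 240 kb up to Ptpn1 on chromosome 2 had 36.8%, 47.0%, 39.5% and 41.7% in PBS and 63.3%, 81.6%, 61.8% and 60.9% in CD11b-positive libraries. There 18 tiles were called higher and none lower. CD11b-negative libraries had 50.3%, 81.8%, 44.4% and 42.8% in that gap, so replicate 2 alone reached the CD11b-positive range. Differences of 15 points or more were also seen beside Foxp1 (21.1 points, 5 tiles), Satb1 (17.9, 7 tiles), Runx3 (17.5, 14 tiles) and Bcl11a (16.9, 14 tiles), all transcription factors of blood lineages.

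The 23 tiles between Irf8, a factor of monocyte and dendritic cell development, and Foxf1 were mixed, with 48.3% ± 1.59 in PBS and 59.2% ± 3.205 in CD11b-positive libraries, 12 tiles called higher and 4 lower. The 19 tiles of the 1786 kb between Myc, a driver of growth, and Gsdmc had 69.9% ± 2.13 and 82.5% ± 5.39, with 11 higher and none lower, and the 22 tiles between Runx1 and Setd4 had 68.9% ± 1.85 and 81.3% ± 3.55, with 14 higher and none lower. The exception was the DNA between the receptor genes Kit and Kdr (9 tiles), where the libraries overlapped at 65.2% ± 1.16 and 66.7% ± 3.67 and 2 tiles were called in each direction. Small differences were also found between Pdgfra and Kit (2.78 points), before Sox4 (3.41) and between Mef2c and Tmem161b (4.61), while the differences were 5.60 to 13.9 points beside Id2, Bcl11b, Nfia, Lmo4 on both sides, Tox, Klf4, Mef2c on its other side, Myc on its other side, Meis1 on both sides, Foxo1, Gata3, Ebf1 and Zeb2. By nearest gene, 97 of 199 tiles beside blood regulators were called higher (48.7%) and 8 lower (median difference 10.3 points). Beside developmental transcription factors it was 187 (39.6%) and 19 of 472 (7.83). Beside neuronal adhesion and synapse genes it was 321 (34.7%) and 2 of 926 (7.42). Clustered receptor and secreted families had 28 (27.2%) and 0 of 103 (6.94). The 10525 tiles beside other genes had 4329 (41.1%) and 185 (8.46). Of desert tiles 40.6% were called higher and 1.75% lower, and of all tiles 32.5% and 3.76%. The sets also differed in level, with PBS means of 66.2%, 67.4%, 77.3%, 76.8% and 71.2% in this order.

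The tiles with the largest called changes were named among those with 10 to 24 CpGs. The largest gain was in the lncRNA Gm36139, 92.3 kb from Hmcn1, an extracellular matrix gene (chr1:151086001-151087000, 10 CpGs). PBS libraries had 7.18%, 36.3%, 21.2% and 26.7% there and CD11b-positive libraries 68.7%, 92.02%, 55.0% and 62.4%, a rise of 46.7 points (quasi-binomial test, adjusted p = 0.00325). The next lay within Pvt1, the long non-coding RNA downstream of Myc and 228.6 kb from it, where the pseudogene Macroh2a3 is also annotated (chr15:62219001-62220000, 11 CpGs). PBS libraries had 13.0%, 37.2%, 25.2% and 26.5% and CD11b-positive libraries 62.4%, 97.5%, 58.3% and 59.9%, a rise of 44.0 points (adjusted p = 0.00457). In both tiles CD11b-negative replicate 2 was with the CD11b-positive libraries, at 89.9% and 95.5%, and the other CD11b-negative libraries had 11.4% to 28.7%. With the Y share as covariate these differences were 13.9 points (adjusted p = 0.797) and 8.09 points (adjusted p = 0.9996).

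A tile between Sdk2 and Rpl38 went from nearly unmethylated to intermediate (chr11:114485001-114486000, 10 CpGs, no annotated gene). PBS libraries had 5.07%, 11.1%, 7.29% and 8.52%, CD11b-negative libraries 18.5%, 45.7%, 14.9% and 13.6% and CD11b-positive libraries 49.9%, 61.5%, 40.7% and 39.1%. The rise of 39.8 points over PBS (adjusted p = 0.000595) was the only one of the 8 tiles named here that was called with the Y share as covariate, at 23.9 points (adjusted p = 0.0176). All CD11b-negative libraries were above all PBS libraries in this tile. The fourth gain, 37.2 points (adjusted p = 0.00323), was between 9530068E07Rik and Fstl4 in the pseudogene Gm12209 (chr11:52480001-52481000), from 32.5% ± 6.06 to 69.8% ± 14.3.

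The largest losses had wide CD11b-negative values. Between N4bp1 and Cbln1, a synapse organiser gene (chr8:87038001-87039000, 13 CpGs), PBS libraries had 70.9%, 54.5%, 72.0% and 61.8% and CD11b-positive libraries 33.4%, 6.43%, 42.6% and 49.1%, a fall of 31.9 points (adjusted p = 0.00943). CD11b-negative replicate 2 had 9.19% and the other CD11b-negative libraries 59.7% to 68.7%. A tile 281.4 kb from the peroxisome gene Pex2 (chr3:5860001-5861000, 16 CpGs) fell from 72.5% ± 11.9 to 41.1% ± 7.78. A tile in the transcribed pseudogene Gm32618, 82.7 kb from the semaphorin gene Sema5a (chr15:32779001-32780000, 18 CpGs), fell from 69.3% ± 8.44 to 38.2% ± 18.7, and was not called in a model of all 12 libraries (adjusted p = 0.0581). A tile in the pseudogene Gm46561, 114.9 kb from Efcab1 (chr16:15084001-15085000, 10 CpGs), fell from 56.5% ± 5.31 to 25.8% ± 9.48 (adjusted p = 0.00258). With the Y share in the model none of the 4 was called, and the tiles beside Cbln1 and Sema5a changed sign (1.33 and 3.26 points).

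**Figure D5:**
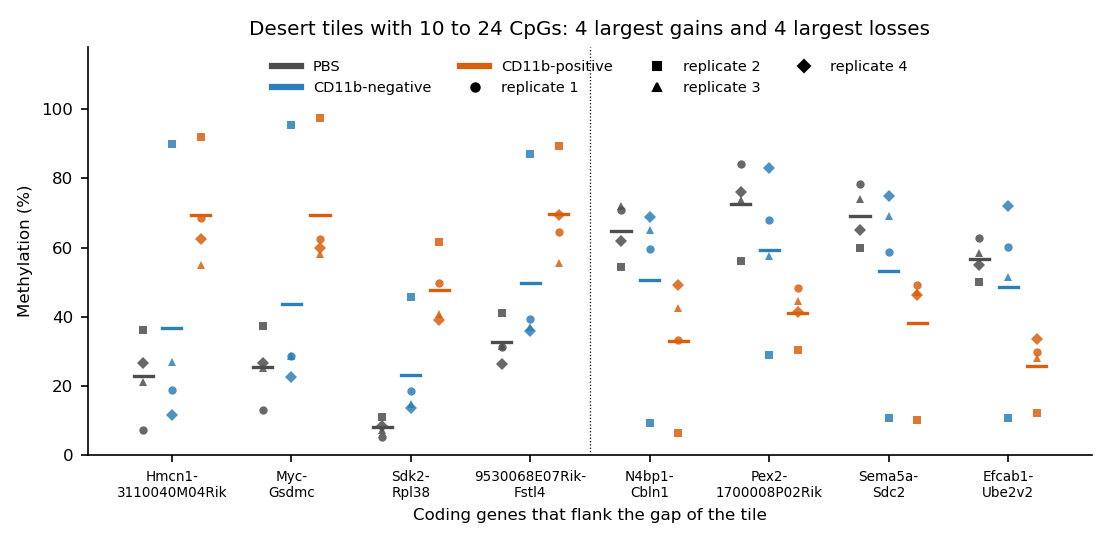
Methylation (%) in every library of the 8 desert tiles with 10 to 24 CpGs and the largest called gains (left of the dotted line) and losses (right), named by the coding genes that flank their gap. Short lines are group means and symbols are libraries by replicate number. CD11b-negative replicate 2 (blue square) lies with the CD11b-positive libraries, for example at 95.5% in the tile between Myc and Gsdmc.

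Among the tiles with 3 to 9 CpGs the largest differences from PBS are a description. They were higher beside Brd7 (33.1% ± 4.40 and 81.5% ± 9.17), Bcl11a (27.4% ± 8.09 and 74.9% ± 13.1), Lipo4, in Rnls, which the table used lists as a pseudogene (24.6% ± 8.85 and 71.9% ± 16.5) and Ptpn1, in the gap of Cebpb (24.1% ± 5.25 and 69.9% ± 11.5). They were lower beside Sall1 (62.9% ± 8.40 and 26.4% ± 13.1), Fam155a (66.5% ± 8.64 and 31.6% ± 12.6), Klf12 (52.8% ± 8.10 and 18.8% ± 10.1) and Gm46320 (64.97% ± 11.5 and 31.4% ± 20.02).

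The 116 desert tiles with 10 to 24 CpGs and less than 20% in PBS stayed low. Their mean was 6.32% ± 0.275 in PBS, 6.70% ± 0.340 in CD11b-negative and 6.99% ± 0.0616 in CD11b-positive libraries, and 98 of the 116 were within 5 points of PBS. Of these tiles, 57 overlapped an annotated non-coding gene. Tiles in Dleu2, the non-coding host of microRNA genes lost in chronic lymphocytic leukaemia, had 0.410% ± 0.167 and 0.624% ± 0.301 in PBS and 0.404% ± 0.0503 and 0.578% ± 0.292 in CD11b-positive libraries. Junos beside Jun had 0.699% ± 0.176 and 1.08% ± 0.108, and 5730522E02Rik, in the gap beside Bcl11a whose tiles were 16.9 points higher on average, 1.23% ± 0.253 and 1.01% ± 0.132. In this class 7 tiles were called higher (6.03%, beside 2.54% of all autosomal tiles with as many CpGs and that level), and a level under 10% leaves no room for a call lower. After the tile beside Rpl38 the largest differences were 24.7 points in Gm26562 beside Cpn2 (from 10.5% ± 3.38), 21.1 points beside Fam53a (from 15.1% ± 4.51) and 17.2 points in AI463229 beside Rreb1 (from 4.21% ± 1.19). These 3 were chosen after their values were seen.

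The most frequent kinds of non-coding annotation are given as a description. The 1857 desert tiles in a long non-coding RNA gene had 65.4% ± 0.905 in PBS and 75.2% ± 2.83 in CD11b-positive libraries, the 412 in pseudogenes 76.0% ± 0.537 and 84.6% ± 2.45, and the 9813 without an annotated gene 72.4% ± 0.859 and 82.2% ± 2.74, so differences of 9.79, 8.56 and 9.82 points. Kinds with fewer tiles were spread more widely, from 2.31 points in 12 tiles with other RNA genes (misc_RNA) and 4.46 in the 5 with microRNAs to 11.2 in 3 with tRNA genes, 12.98 in 2 with snRNA genes and 18.1 in 1 with a J segment.

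At the limits of the selection, the kept tiles just past 50 kb were near Fut8 (87.2% in PBS, 95.3% in CD11b-positive) and Fst (73.3%, 87.3%), and the unkept tiles just short of it near Car13 (97.3%, 98.8%), Pkn2 (69.6%, 84.2%) and Uri1 (95.8%, 96.5%). Tiles just above 20% in PBS were near Mat2b (20.01%, 35.6%), Rrp15 (20.03%, 18.03%) and Foxq1 (20.1%, 22.7%), and those just below near Zmiz1 (19.9%, 30.6%), Epha7 (19.9%, 52.5%) and Cd24a (19.9%, 53.1%).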

How the data were processed

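Methylation was read by reduced representation bisulfite sequencing, a method limited to restriction fragments rich in CpGs, in 12 libraries (3 groups of 4). The submitters' processing notes name Bismark, methylKit 1.20.0, Trim Galore 0.6.4 and cutadapt 2.7, and mm10 as the genome build. Bismark's version is not given in the sources used here, nor is any duplicate removal or conversion rate. The deposited values are counts of methylated and unmethylated calls per CpG cytosine and strand, not normalised, with at least 1 call per line. Amplified copies of a molecule may each be counted, and the method leaves most CpG-poor desert DNA unmeasured.

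The calls of both strands were summed and 1052856 CpGs with at least 10 calls in every library were kept. A tile's level is its methylated calls over all its calls, and each tile counts once in a mean. Coding genes (21900) and non-coding genes came from the RefSeq table of GRCm38.p6, whose bases matched CG at all 151793 common CpGs within its promoter windows. Differences between library means were tested by exact permutation, two-sided, with Benjamini-Hochberg adjustment over 9 tests, or over chromosomes or classes. Tiles were tested with a quasi-binomial logistic model and an F test on the 8 libraries compared, whose dispersions were moderated as in limma, separately for bins of mean level. A call needed an adjusted p under 0.05 over all 87020 autosomal and X tiles and 10 points. The step was tested on simulated data. Alternatives were other coverage minimums, distances and weightings, left-out libraries, a replicate block, the Y share, a model of all 12 libraries and edgeR 4.0.16 (R 4.3.3). Promoter windows on chromosome 18 are not used here, and 1 named gap and 1 tile at the distance limit are not reported here. The desert tiles, gene lists and tests were chosen with earlier results of these data known. Named tiles were, for each comparison, the 4 called gains and 4 called losses of largest size without overlap, at most 1 per gap. Gaps were named if among the 8 with most tiles or the 3 longest, or if flanked by a listed blood regulator and holding 5 or more tiles.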

Additional observations from a re-analysis of the deposited data

Results flagged for a closer look

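In 15 groups of 4 library values (5 measures in 3 groups), 5 held a library whose distance to its nearest neighbour exceeded the share of the group's range that Dixon's 95% limit allows, where chance gives about 1 in 20. All 5 were replicate 2 of a treated group. The 5 measures share tiles, so the 15 groups are not independent, and the count of 5 cannot be weighed against 1 in 20. CD11b-positive replicate 2 had a mean of 85.3% over all desert tiles, 83.2% over the desert tiles before the PBS condition and 81.6% over those with 10 to 24 CpGs. CD11b-negative replicate 2 had 80.7% in the tiles with 10 to 24 CpGs, and its desert tiles exceeded the tiles near genes by 9.15 points. Both libraries also listed the most CpGs and had the highest Y share of their groups, and the part of these in the values was not tested.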

How the results depend on the processing

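Of the 9 differences between library means, 8 kept their direction and stayed above 0.05 after adjustment at coverage minimums of 5 and 20, distances over 100 and 200 kb, each gap counted once, depth weighting, means over CpGs, 5 or more CpGs and exclusion by the mean of 12 libraries. The excess of deserts over in-gene tiles (0.232 points between treated groups) became -0.0914 over 100 kb, -0.256 over 200 kb and -1.46 with depth weighting, and the cause was not tested. Leaving out single libraries gave 3.18 to 7.02 points for CD11b-positive minus CD11b-negative over all desert tiles, and with 3 against 4 libraries an exact test cannot go below 0.0571. Calls of CD11b-positive against PBS (5176) were 1701 at a minimum of 20 points, 8948 with no minimum, 3394 over 100 kb, where fewer tiles remain, 3 with the Y share as a term and 4402 to 5282 without single libraries. CD11b-negative against PBS gave 2 with the Y share. CD11b-positive against CD11b-negative gave 0 to 2333 without single libraries, the latter without CD11b-negative replicate 2. With the replicate number as a block it gave 1301 (0 without it), and CD11b-positive against PBS 4965. Shares of all tiles at these alternative settings are not given here, except without CD11b-negative replicate 2 (17.7% higher and 2.72% lower). These counts show how the calls moved and are no result about deserts. Deviations of same-numbered CD11b-positive and CD11b-negative libraries correlated at 0.0900, 0.878, 0.526 and 0.537, so the numbers were not taken as pairs, and only replicate 2 correlated best with its own number from either side. With PBS the same-numbered correlations were 0.124, 0.644, 0.139 and -0.0516 for CD11b-positive and 0.322, 0.698, 0.249 and -0.0850 for CD11b-negative libraries. Such correlations cannot decide whether equal numbers mark the same mouse. Of the 16 named tiles, 12 lost their call and 3 changed sign with the Y share (1.33 and 3.26 points beside Cbln1 and Sema5a, and 1.38 beside Gm46320), and 2 losses were not called with all 12 libraries. Precision is limited by 4 libraries per group and by a median of 440 to 594 calls per desert tile and library.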

Other observations

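Desert tiles that the selection left out went in both directions. The 111 with 25 or more measured CpGs had 40.7%, 35.7%, 40.3% and 38.2% in PBS and 32.7%, 26.1%, 33.8% and 34.8% in CD11b-positive libraries, so that all CD11b-positive libraries lay below PBS, by 6.89 points on average. CD11b-negative libraries had 36.7%, 26.0%, 40.02% and 40.2% there. The 433 tiles with 3 to 9 CpGs and under 20% in PBS had 9.18% ± 1.23 in PBS and 18.6% ± 3.22 in CD11b-positive libraries, values that the PBS condition helped to set.

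Neighbouring desert tiles of a gap had similar PBS levels. Across pairs of tiles, which share libraries, Pearson's r was 0.582 at 1 to 2 kb (1081 pairs), 0.370 at 2 to 10 kb, 0.207 at 10 to 50 kb and 0.121 at 200 to 1000 kb. For the difference between CD11b-positive and PBS it was 0.430 at 1 to 2 kb and 0.0745 at 200 to 1000 kb.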
